A study of Homo sapiens with 8 samples.

Results

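Ribosome footprints of well-covered RNAs were compared between SH-SY5Y cells with a knockdown of RPS29 and control SH-SY5Y cells. The genes were chosen by their coverage: at least 200 Ribo-seq counts summed over the 4 Ribo-seq libraries, and a mean RNA level of at least 10 CPM (counts scaled to a common library size, here by the total counts) over the 4 RNA-seq libraries. This left 4009 of the 14019 genes listed in the Ribo-seq table, here called the members, and 4008 of them were matched to RefSeq as protein-coding genes. The groups were a knockdown group carrying a short hairpin RNA against RPS29 (genotype RPS29 knockdown) and a control group carrying the hairpin shCONT (genotype control), with 2 libraries per group in each assay. SH-SY5Y is an established human neuroblastoma line. The labels name no clone and no sequence or number of hairpins, and do not say whether the libraries came from separate cultures, so p-values measure the spread between these libraries only.

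RPS29 is a protein of the small ribosomal subunit, the part of the ribosome that binds the messenger RNA and reads its start codon. In Ribo-seq, nuclease removes RNA that is not covered by a ribosome, and the protected fragments, the footprints, are sequenced. The footprints of a gene therefore depend both on how much of its RNA is present and on how densely ribosomes sit on it, and dividing them by the RNA level gives the footprints per RNA, also called translational efficiency. RNAs of ribosomal proteins and of several translation factors typically begin with a run of pyrimidines, the terminal oligopyrimidine (TOP) motif, through which their translation is controlled together.

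Ribo-seq libraries held between 2630463 and 4375971 counts and RNA-seq libraries between 17539104 and 19156104. The members took between 60.4 and 79.8% of the Ribo-seq counts, and members with a small RNA gene inside their span took between 43.9 and 64.9%, which left the median member 95 counts in control 1, 100 in control 2, 58 in knockdown 1 and 105 in knockdown 2. Across members, footprint levels correlated at Spearman rho = 0.802 between the 2 controls and 0.660 between the 2 knockdown libraries. Knockdown 1 stood further from the controls (0.286 and 0.196) than knockdown 2 did (0.587 and 0.525). All 13 markers of noradrenergic neuroblastoma were listed in the RNA-seq table, with a summed level between 8041 and 8182 CPM in the 4 libraries, and 11 of the 13 reached a mean of 10 CPM. TH, which makes the precursor of noradrenaline, and PRPH, peripherin, were near 0, at means of 0.0952 and 0.258 CPM. Within that steady sum STMN2 RNA was lower in the knockdown, at 902 and 893 against 465 and 454 CPM scaled by total counts alone. CHGA was lower too, at 1600 and 1649 against 1153 and 1315 CPM. GATA2 was higher in the knockdown, at 1215 and 1221 against 1605 and 1555 CPM. Of 5 epithelial, 6 blood and 2 endothelial markers none reached 10 CPM, with summed levels of at most 4.75, 2.35 and 0.157 CPM in any library, while 4 of 7 mesenchymal markers did, at a summed 231 to 255 CPM in the controls and 269 to 325 CPM in the knockdown.

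RPS29 itself passed the coverage rule and was lower in both assays. Its gene lies at chr14:49570988-49598710 (GRCh38.p14). Its RNA was at 137 and 160 CPM in the controls and at 7.53 and 6.46 CPM in the knockdown libraries (log2 fold change -4.40, SE 0.12, edgeR adjusted p = 6.32e-12). Footprints on RPS29 were at 59.4 and 39.1 CPM in the controls and at 11.6 and 7.02 CPM in the knockdown. These rest on 199 and 129 control counts and 28 counts in each knockdown library. With so few knockdown counts the footprint difference is in part fixed by the coverage rule. The knockdown libraries lay below both controls in each assay. Footprints changed by -2.41 on the log2 scale (SE 0.60, edgeR adjusted p = 0.0193), a change smaller than that of the RNA, and the change in footprints per RNA was 1.97 (adjusted p = 0.0553). With single libraries left out the footprint change lay between -2.79 and -2.12, and the call was lost without control 1, control 2 or knockdown 2 (highest adjusted p = 0.148). The gene for the small RNA RN7SL1 lies within the RefSeq span of RPS29, and its part in these counts was not tested.

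The median footprint change of the members was a log2 fold change of -0.37 (knockdown over control), against 0.04 over all 11853 genes tested and 0.29 over the 7844 tested genes that are no members. This level depends on the scaling, which took all tested genes as its base: with factors computed from the members alone their median was 0.01, and with total counts alone -0.62. Statements on groups of genes below are therefore read against the members' own median. By edgeR's quasi-likelihood test, 209 members had more footprints in the knockdown and 60 had fewer (adjusted p below 0.05). These are 5.21 and 1.5% of the members, while over all genes tested 7.96% were called higher and 0.607% lower. The split between directions moved with the scaling, to 214 higher and 4 lower with factors from the members alone and to 120 and 67 with total counts alone. It also moved with single libraries: the counts were 65 and 11 without control 1, 28 and 2 without control 2, 82 and 18 without knockdown 1, and 188 and 46 without knockdown 2. In these fits the lone library of a condition was assumed to vary like those of the other. Of the 209 higher calls, 19 were made in each of these 4 fits, and of the 60 lower calls 0 were.

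Footprints spread more between replicates than RNA did. The median absolute log2 difference between the 2 controls was 0.39 for footprints and 0.06 for RNA, and between the 2 knockdown libraries it was 0.63 and 0.11. The median SE of a member's footprint change was 0.58, against 0.08 for RNA, and the smallest footprint change that was called was 1.84 on the log2 scale. Counting instead the members whose 2 knockdown libraries both lay beyond both controls, 849 were higher (21.2%, against 29% of all genes tested) and 1695 were lower (42.3%, against 26.7%).

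The footprint change went with the RNA level and with the length of the gene on the genome. In 5 equal groups ordered by RNA level in CPM, the median log2 fold change was 0.61 for the lowest level, then -0.05, -0.38, -0.59 and, for the highest level, -0.82. In 5 equal groups ordered by gene span in RefSeq it was -0.90 for the shortest genes, then -0.76, -0.51, -0.07 and, for the longest, 0.73. Members with a span over 100 kb had a median of 0.46 (1244 genes) and the others of -0.67 (2765 genes). The difference by span held within each level of RNA: among the members of lowest RNA level it was 1.21 over 100 kb against -0.15, and among those of highest RNA level -0.28 against -0.88. These groups include members that entered through the counts of 1 condition alone. Among members with 100 counts in each condition, a selection added after the data were seen, the medians were smaller at low RNA level, 0.61 over 100 kb against -0.18, and -0.28 against -0.85 at the highest. By RNA level alone these members ran from 0.20 to -0.79, and by span from -0.79 for the shortest to 0.42 for the longest. Across the 4009 members the footprint change correlated with RNA level at Spearman rho = -0.44 and, over those matched to RefSeq, with span at 0.56, while RNA level and span correlated with each other at -0.38. The change in RNA was barely related to either, with rho of -0.05 for level and -0.13 for span. These correlations are across genes that share 4 libraries and are descriptions.

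**Figure D1:**
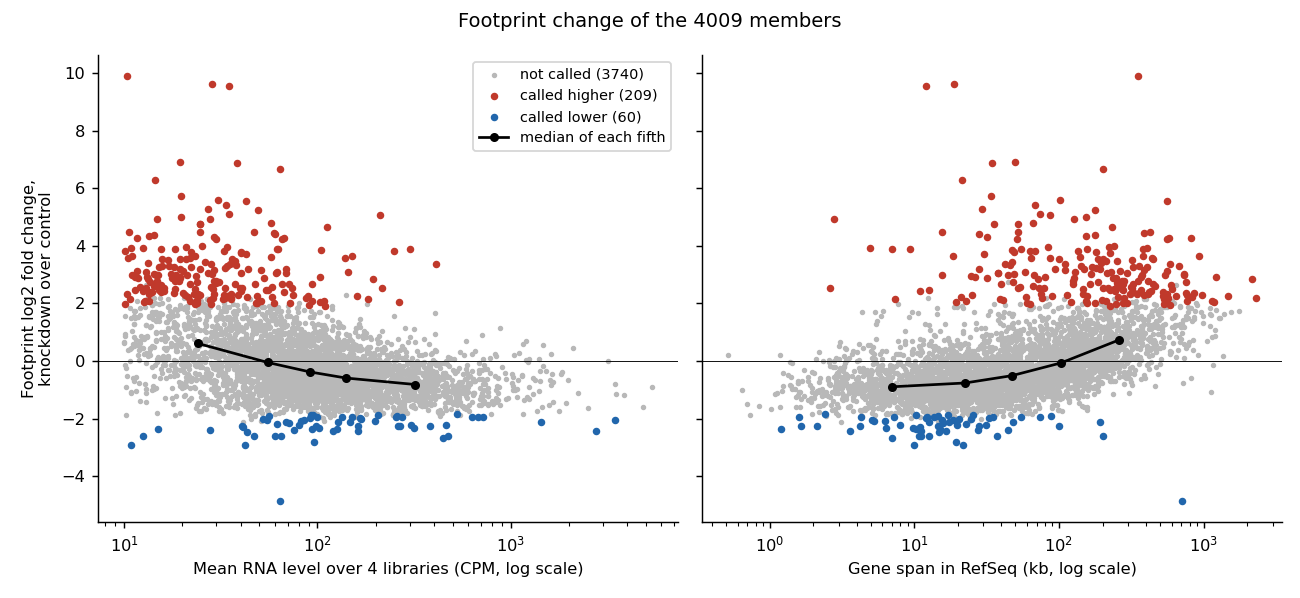
Footprint log2 fold change (knockdown over control, vertical axis) of the 4009 members against mean RNA level in CPM (left) and gene span in kb (right), both on log axes. Grey points were not called, red points were called higher (209) and blue points lower (60) by edgeR, and black points join the medians of 5 equal groups, which run from 0.61 to -0.82 with RNA level and from -0.90 to 0.73 with span.

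The 209 members called higher were mostly genes of low RNA level and long span. Their median RNA level was 28.1 CPM and their median span 187 kb, against 91.8 CPM and 47.3 kb over the members. Of these genes 137 spanned more than 100 kb and 76 held a small RNA gene. In 146 of them the 2 control libraries together had fewer than 100 counts. Such genes entered through their knockdown counts, so their difference is in part fixed by the coverage rule, and their number supports nothing. Only 17 of the 209 had at least 100 counts in each condition, no small RNA gene and a span of at most 100 kb, against 1524 such genes among the members.

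ZSCAN18, a zinc finger gene of chromosome 19, had the largest increase among members with 100 counts in each condition and no small RNA gene. It had 318 and 191 control counts but 33698 and 15267 knockdown counts. On the log2 scale the change was 6.87 (SE 1.11, adjusted p = 0.00146), and its RNA stayed between 34.9 and 41.7 CPM in the 4 libraries. UXS1, which makes UDP-xylose for proteoglycan synthesis, was at 35.5 and 32.4 CPM in the controls and at 2610 and 691 CPM in the knockdown (log2 fold change 5.60, adjusted p = 0.00129). ADK, adenosine kinase, was at 15.2 and 27.3 CPM against 1591 and 419 CPM (5.56, adjusted p = 0.00114). In each of these genes the knockdown libraries lay far above both controls and differed from each other more than the controls did. All 3 kept their call in each fit that left out 1 library.

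HSPA4, a chaperone of the HSP110 family, was the called gene with most RNA in this group. Its footprints were at 138 and 76.7 CPM in the controls and at 2366 and 820 CPM in the knockdown (3.89, SE 0.79, adjusted p = 0.00601), with RNA between 288 and 322 CPM. EPB41 (4.66), a protein that links spectrin to the membrane, IQSEC1 (4.43), an exchange factor for ARF GTPases, PIMREG (3.88), a mitotic regulator, and NMT1 (3.84), the enzyme that adds myristate to proteins, rose as well. So did STOX2 (3.76), SUB1 (3.63), a transcription coactivator, UBE2O (3.59), a ubiquitin-conjugating enzyme, and DAPK1 (3.46), a death-associated protein kinase. DAPK1 RNA moved the other way, from 50.0 and 47.5 CPM to 27.2 and 25.9 CPM (-0.88, adjusted p = 8.53e-06), as did PIMREG RNA (-0.59, adjusted p = 1.85e-04). HSPA4, EPB41, IQSEC1, PIMREG, NMT1, SUB1, UBE2O and DAPK1 were not called without control 1 or without control 2, and STOX2 was not called without control 2 (highest adjusted p between 0.074 and 0.301).

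Among called members with fewer than 100 control counts, ZFAT had 7 and 4 control counts but 6085 and 2781 knockdown counts, with RNA at 10.9 CPM in control 1 and 9.60 CPM in knockdown 2. ZFAT is a zinc finger and AT-hook gene that spans the miRNA genes MIR30B and MIR30D. DPF1, a neuronal subunit of the BAF chromatin remodelling complex, had 8 and 17 counts against 11392 and 4894, and NHERF2, a scaffold for membrane proteins, 2 and 6 against 3576 and 1410. The fitted log2 fold changes were 9.90, 9.61 and 9.53. ODF2L (6.90), ZNF518B (6.28) and HIC2 (5.72) followed. With so few control counts, the size of these changes rests on a handful of reads. Of the called members that hold a small RNA gene, XXYLT1, a xylosyltransferase, was at 70.7 and 34.6 CPM against 8448 and 2372 CPM (6.68), and MARCHF6, a ubiquitin ligase of the endoplasmic reticulum, at 683 and 378 CPM against 26616 and 8609 CPM (5.05). AFTPH (5.43) and BMPR1A (5.23), a receptor for bone morphogenetic proteins, had a similar change from far fewer counts. Of the genes in this paragraph MARCHF6 lost its call when 1 library was left out (control 2, adjusted p = 0.085), and the others did not.

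Called increases were larger in knockdown 1 than in knockdown 2. The ratio of CPM in knockdown 1 to knockdown 2 had a median of 0.848 over the members and of 2.53 over the 209 called higher, with 205 of them above 1. It was 2.21 where the log2 fold change was below 3 (112 genes), 3.01 between 3 and 4 (63 genes), 3.30 between 4 and 6 (27 genes) and 3.66 above 6 (7 genes, range 3.10 to 4.32). The ratio uses the same libraries as the call and is a description. Members called higher with a log2 fold change above 3 took 0.494 and 0.260% of all Ribo-seq counts in the controls, 12.3% in knockdown 1 and 3.63% in knockdown 2. Members called lower had a median ratio of 0.720.

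**Figure D2:**
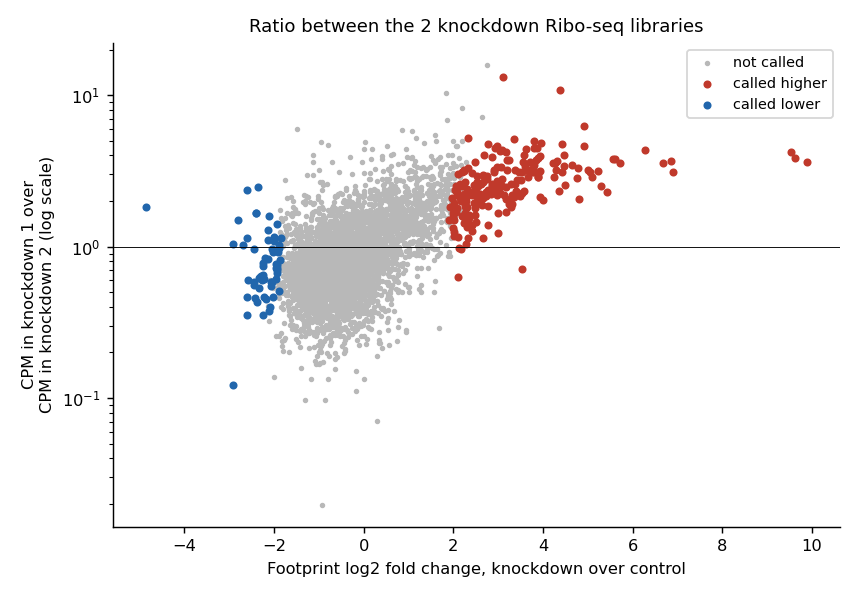
Ratio of footprint CPM in knockdown 1 to knockdown 2 (vertical axis, log scale) against the footprint log2 fold change of each member (horizontal axis). Members called higher (red) had a median ratio of 2.53, members called lower (blue) of 0.720, and all members of 0.848.

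The 60 members called lower were shorter genes with more RNA. Their median span was 14.7 kb and their median RNA level 111 CPM, 57 of them spanned at most 100 kb and 12 held a small RNA gene. In 38 of them the knockdown libraries together had fewer than 100 counts, and their difference is in part fixed by the coverage rule in the same way.

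TUBA1B, an alpha-tubulin, had footprints at 228 and 241 CPM in the controls and at 30.8 and 55.2 CPM in the knockdown. Both knockdown libraries lay far below the controls (-2.44, SE 0.58, adjusted p = 0.0153). RNA of TUBA1B fell too, from 3308 and 3446 CPM to 2340 and 2061 CPM (-0.62, adjusted p = 1.06e-04). ZNF614, a zinc finger gene, was at 318 and 277 CPM against 34.5 and 80.0 CPM (-2.37), and RGS4, a regulator of G-protein signalling, at 103 and 124 CPM against 18.3 and 29.8 CPM (-2.23). TKT, the transketolase of the pentose phosphate pathway, was at 102 and 54.6 CPM against 15.4 and 18.3 CPM (-2.21). CHGA, chromogranin A of secretory granules, was at 282 and 340 CPM against 39.1 and 104 CPM (-2.11). NCSTN, the nicastrin subunit of gamma-secretase, was at 90.7 and 116 CPM against 18.3 and 31.4 CPM (-2.05) while its RNA stayed between 81.9 and 90.3 CPM. LIMD2 (-2.09) and CNPPD1 (-2.07) also had no called change in RNA, with RNA log2 fold changes of 0.00 and -0.04. STMN2, a microtubule regulator of growing neurites, was at 287 and 247 CPM against 59.9 and 79.5 CPM (-1.94), and its RNA fell from 921 and 923 CPM to 457 and 439 CPM (-1.04). TMPO (-1.93), a protein of the inner nuclear membrane, was the smallest of the 12 changes in this group. RPL35A and TUBB, described with their gene groups, complete the 12. Each of the 12 calls was lost without control 1 and without control 2, with the highest adjusted p of a gene between 0.233 and 0.497.

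Members called lower with under 100 knockdown counts included GTF2A2, a subunit of the general transcription factor TFIIA, at 64.1 and 71.6 CPM against 11.6 and 7.78 CPM (-2.81, adjusted p = 0.00671), with RNA between 89.8 and 105 CPM. This call was lost only without control 2 (adjusted p = 0.076). TOMM7, a subunit of the mitochondrial protein import pore, had 100 and 104 counts against 2 and 27 (-2.92), and was not called without control 2 or knockdown 1. CD24 (-2.69), a surface glycoprotein, KPNA2 (-2.61), a nuclear import receptor, ECHDC3 (-2.92) and SCAI (-2.61) fell as well, and each of these 4 lost its call without at least 1 library (highest adjusted p between 0.103 and 0.316). PARD3, a cell polarity scaffold, had the largest decrease, from 14724 and 31987 counts to 757 and 687 (-4.86, SE 0.95, adjusted p = 0.00489). PARD3 spans 706 kb, its RNA was between 58.2 and 66.4 CPM, and the tRNA gene TRL-CAA7-1 lies inside it, whose part in these counts was not tested. Without knockdown 2 PARD3 was not called (adjusted p = 0.053).

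**Figure D3:**
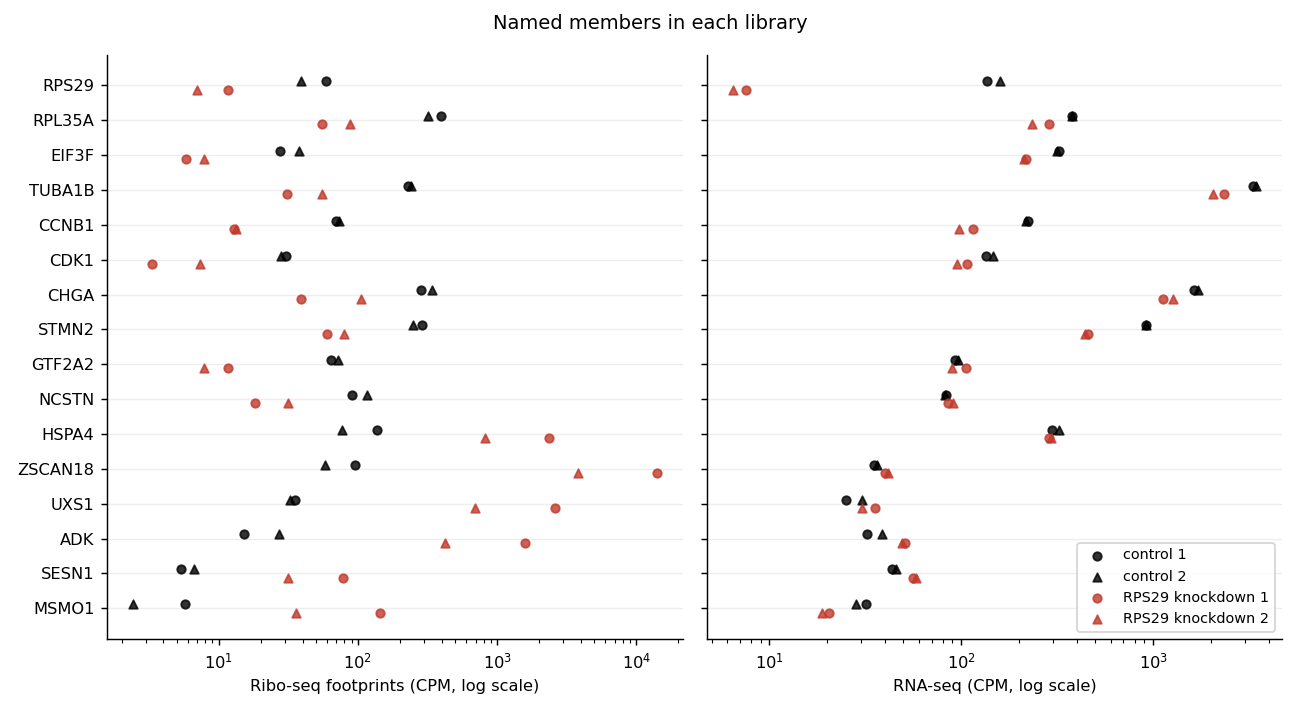
Footprint CPM (left) and RNA CPM (right), both on log axes, of 16 named members in each of the 4 libraries of an assay (black, controls; red, knockdown; circles, replicate 1; triangles, replicate 2). From RPS29 to NCSTN both knockdown libraries lie below both controls in footprints, and from HSPA4 to MSMO1 above them, while RNA moves less in every gene other than RPS29.

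RNA changes were smaller and more often called than footprint changes. In RNA-seq 625 members were higher (15.6%, against 14.4% of all genes tested) and 1099 lower (27.4%, against 16.3% of all genes tested). Members with less RNA had a median footprint change of -0.52 (median RNA change -0.39), those with more RNA of -0.27 (RNA 0.36), and those with no RNA call of -0.32. Among members with less RNA 35 had fewer footprints and 44 had more, and among those with more RNA 0 had fewer footprints and 35 had more. Of the 60 members with fewer footprints 35 had less RNA and 0 had more, with a median RNA change of -0.30. Of the 209 with more footprints, 35 had more RNA and 44 had less, with a median RNA change of 0.01. Across the 4009 members the changes in RNA and in footprints correlated at Spearman rho = 0.085, and at 0.22 over the 1524 members with 100 counts in each condition, no small RNA gene and a span of at most 100 kb.

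**Figure D4:**
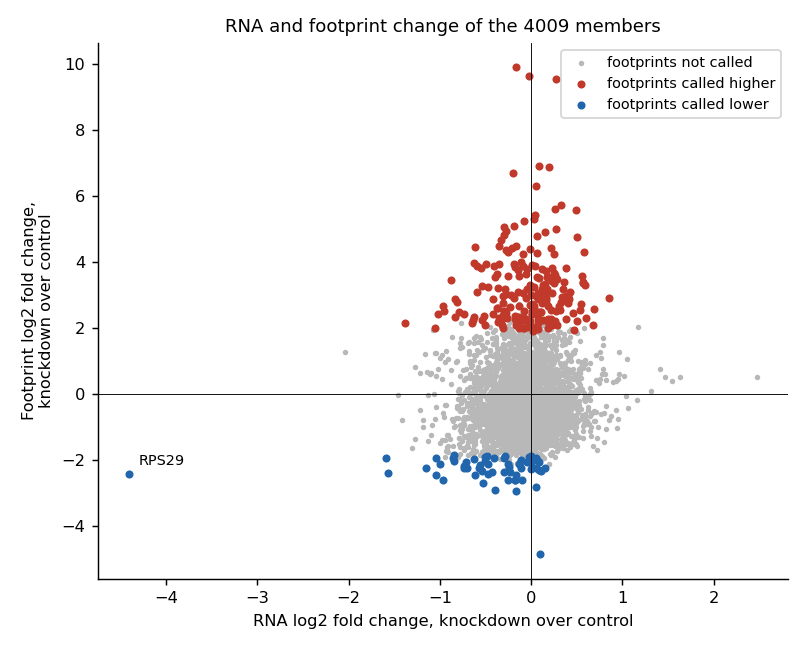
Footprint log2 fold change (vertical axis) against RNA log2 fold change (horizontal axis), knockdown over control, of the 4009 members. Members called higher in footprints (red) spread to both sides of an RNA change of 0 (median 0.01), members called lower (blue) lie mostly to its left (median -0.30), and RPS29 stands alone at -4.40 in RNA.

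Footprints per RNA were tested as the assay-by-condition term of a model over all 8 libraries. Of the members 138 were higher (2.9% of all genes tested were) and 86 lower (1.35% of all genes tested). Of the 209 members with more footprints 110 were called higher in footprints per RNA, and of the 60 with fewer footprints 25 were called lower. GTF2A2 (-2.88, adjusted p = 0.0306), NCSTN (-2.12, adjusted p = 0.0376) and CNPPD1 (-2.02, adjusted p = 0.0411) fell in footprints per RNA. TUBA1B (-1.82, adjusted p = 0.0619), RPL35A (-1.77, adjusted p = 0.0519) and CHGA (-1.63, adjusted p = 0.128) did not pass this test. These counts depended on single libraries, with 281 and 296 without control 1, 44 and 25 without control 2, 295 and 356 without knockdown 1, and 649 and 1385 without knockdown 2. A single dispersion was fitted to each gene over both assays, and footprints varied more between replicates than RNA did.

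The lists of genes below are read beside members of the same kind, since many hold short genes with much RNA: members of highest RNA level with a span of at most 100 kb had a median of -0.88, and those of the next level -0.74. List medians also moved with single libraries, as the median of the members did, and their lowest and highest values with 1 library left out are given in brackets. The share of a list below both controls is to be read beside the 42.3% of all members. For members with a span of at most 100 kb that share was 69.4% at the highest RNA level and 59.4% at the next. The RNA calls of a list are to be read beside the 15.6% of all members called higher and the 27.4% called lower.

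Of 25 small-subunit protein genes among the members (RPS29 not counted), 0 were called and the median change was -0.51 [-0.86 to -0.29], while 19 had less RNA (median RNA change -0.56). Both knockdown libraries lay below both controls in 15 of the 25 (60%, against 69.4% of short members with most RNA). RPS25 footprints were at 132 and 146 CPM against 27.4 and 89.3 CPM (-1.24, adjusted p = 0.234), with knockdown 1 well below knockdown 2. RPS20 (-1.36, adjusted p = 0.192) and RPS15A (-1.34, adjusted p = 0.204) had a similar difference. Of 36 large-subunit genes 1 was called, RPL35A, and the median was -0.45 [-1.03 to -0.18], with 29 lower in RNA (median -0.44). With all libraries both subunits' medians were below the -0.37 of the members and above the -0.88 of short members with most RNA. Without control 2 the small-subunit median was -0.29, above the -0.33 of the members. Without knockdown 1 the large-subunit median was -0.18, above the -0.23 of the members. In the other fits that left out 1 library each stayed below the members. RPL35A was at 398 and 317 CPM in the controls and at 55.3 and 87.5 CPM in the knockdown (-2.32, SE 0.60, adjusted p = 0.0223), and not called without control 1 or control 2. RPL15 (-1.25, adjusted p = 0.199) and RPL7A (-1.25, adjusted p = 0.218) had the next smallest p. The median change in footprints per RNA was 0.03 for the small subunit and -0.05 for the large, against -0.31 over the members.

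The first bases of a few of these RNAs are shown because a TOP motif, a C at the first base followed by pyrimidines, is the known shared feature of this class. Each line gives 10 bases before and 20 after the annotated start, 5′ to 3′, from the RefSeq promoters of GRCh38.p14, with capitals for an unbroken run of at least 5 pyrimidines that begins with C at the start itself.
RPS24, chr10:78033853-78033882, plus strand: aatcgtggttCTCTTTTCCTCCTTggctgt
RPL35A, chr3:197950180-197950209, plus strand: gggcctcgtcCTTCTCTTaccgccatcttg
RPL7A, chr9:133348208-133348237, plus strand: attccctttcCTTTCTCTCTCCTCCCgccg
RPS25, chr11:119018324-119018353, minus strand: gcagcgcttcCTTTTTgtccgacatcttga
EIF3F, chr11:7987327-7987356, plus strand: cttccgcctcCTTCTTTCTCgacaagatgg
RPS29, chr14:49598691-49598720, minus strand: agcgcgcagctggcagcggtggttgtttct
CCNB1, chr5:69167140-69167169, plus strand: ggctcttctcggcgtgctgcggcggaacgg
TUBA1B, chr12:49131376-49131405, minus strand: gccccgccctagtgcgttacttacctcgac
TUBB, chr6:30720342-30720371, plus strand: tcctttctccCTCTCagaaccttcctgccg
EIF5A, chr17:7306989-7307018, plus strand: tgggaacccgaccacactagcgcgctagaa

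A start of this kind was found in 37 of 48 ribosomal protein members with a promoter in the table (77.1%), in 241 of 3355 members (7.18%) and in 4.04% of all 27305 promoters. CCNB1 and TUBA1B, which are no ribosomal proteins and are shown for contrast, have no such run, nor has the annotated start of RPS29. TUBB, no ribosomal protein either, has a run of 5, and EIF5A, a translation factor, has none. The search covered this strand and this position alone, and no match says only that these letters are not in this window. Members with a TOP-like start had a median footprint change of -0.47 and the other members of -0.36. Among members of highest RNA level the medians were -0.77 with such a start and -0.83 without. With ribosomal proteins taken out of that level the order was reversed, at -0.91 with such a start (52 genes) and -0.84 without. Among the 49 members called lower that have a RefSeq promoter, 9 had a TOP-like start (18.4%), RPL35A and EIF3F among them, and of 178 called higher 10 had one (5.62%). That share was 7.18% over the members and 13.6% over those of highest RNA level, and the difference was not tested.

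Of 28 initiation factors among the members, 1 had fewer footprints and the median was -0.66 [-1.22 to -0.39], while 7 had more RNA and 3 less (median 0.08). EIF3F, a subunit of the initiation factor that holds the small subunit, was at 27.4 and 37.9 CPM against 5.82 and 7.78 CPM (-2.25, adjusted p = 0.0311), and the call was lost with any 1 library left out. It had 92 and 125 control counts but only 14 and 31 knockdown counts, so its difference is in part fixed by the coverage rule. EIF1AX (-1.55, adjusted p = 0.0932) and EIF2B4 (-1.44, adjusted p = 0.113) were not called. Of 9 elongation and termination factors 0 were called (median -0.52 [-0.93 to -0.35]), EIF5A being at 150 and 155 CPM against 74.4 and 76.0 CPM (-1.02, adjusted p = 0.271). Of 20 cytosolic aminoacyl-tRNA synthetases 0 were called (median -0.60 [-0.82 to -0.43]), with MARS1 at -1.53 (adjusted p = 0.094).

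Of 44 ribosome assembly and rRNA processing factors, 28 had more RNA (63.6%, against 15.6% of all members), 0 had less and the others did not pass the test (median 0.25). In footprints 0 were called and the median was -0.69 [-0.98 to -0.29], with 20 of the 44 below both controls (45.5%, near the share of all members) and 1 above. DDX56, a helicase of ribosome assembly, had RNA at 160 and 169 CPM in the controls and at 224 and 210 CPM in the knockdown (0.40, adjusted p = 7.21e-04). Its footprints were at 153 and 139 CPM against 32.4 and 73.0 CPM (-1.47, adjusted p = 0.130). GAR1 (-1.56, adjusted p = 0.125) and DDX47 (-1.32, adjusted p = 0.150) were not called either. Of 24 mitochondrial ribosomal proteins 0 were called in footprints (median -0.83 [-1.26 to -0.56]) and 8 had more RNA (median 0.15). MRPL20 was at 62.7 and 44.0 CPM against 18.7 and 10.8 CPM (-1.86, adjusted p = 0.0553).

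Genes of mitosis had the lowest median of all lists with all libraries, -1.31 over 38 members [-1.67 to -1.01], against -0.37 over the members. Without control 2 this rank was lost: the median was -1.09 for mitosis, -1.23 for cholesterol and fatty acid genes and -1.14 for tubulins, actins and partners. Members with 112 to 196 CPM of RNA and a span of at most 100 kb had a median of -0.74, with 59.4% below both controls. Of the 38 mitosis genes, 6 had fewer footprints and 0 had more, 33 lay below both controls in both knockdown libraries (86.8%), and 36 had less RNA (median RNA change -0.59). Such a share was not particular to mitosis. It was 88.2% for genes of the endoplasmic reticulum, 100% for the 4 immediate early genes, 85.7% for hypoxia and glycolysis genes and 82.1% for tubulins, actins and partners. CCNB1, cyclin B1, which drives entry into mitosis, was at 69.8 and 72.5 CPM against 12.9 and 13.3 CPM (-2.44, SE 0.56, adjusted p = 0.0123), with RNA from 222 and 218 CPM to 116 and 97.5 CPM (-1.05). CDK1, its kinase partner, had 102 and 92 counts against 8 and 29 (-2.42, adjusted p = 0.0296), with a smaller RNA change (-0.47). KIF2C, a kinesin of the centromere, was at 35.2 and 37.9 CPM against 6.65 and 8.53 CPM (-2.25, adjusted p = 0.0260). CCNB1, CDK1 and KIF2C each had fewer than 100 knockdown counts, so their difference is in part fixed by the coverage rule. CCNB1 and KIF2C also hold a small RNA gene, whose part in these counts was not tested. The other 3 called genes, AURKA (-2.18), NUSAP1 (-2.13) and UBE2C (-1.96), were named after their values were seen. CCNB1 lost its call without either control, and CDK1 and KIF2C with any 1 library left out. Of 30 genes of G1/S and DNA replication 1 was called, RRM2, the small subunit of ribonucleotide reductase (-1.92, adjusted p = 0.0427), not called with any 1 library left out. Their median was -1.22 [-1.44 to -0.82], and 14 had less RNA. FEN1 (-1.91, adjusted p = 0.0517) and GINS2 (-1.79, adjusted p = 0.0732) came next. RRM2, FEN1 and GINS2 also had fewer than 100 knockdown counts, so their difference is in part fixed by the coverage rule. RRM2 holds a small RNA gene as well. In bulk libraries, fewer cells in a stage of the cycle and less RNA per cell cannot be told apart.

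Of 18 cholesterol and fatty acid genes 3 had fewer footprints and 1 more, 14 lay below both controls (77.8%) and 2 above, the median was -1.26 [-1.65 to -0.86], and 16 had less RNA (median -0.52). SREBF2, the transcription factor that drives this pathway, was at 66.2 and 81.0 CPM against 15.4 and 22.8 CPM (-1.94, adjusted p = 0.0395), and holds the miRNA gene MIR33A. MSMO1, a sterol demethylase, had more footprints, at 19 and 8 control counts and 348 and 144 knockdown counts (4.46, adjusted p = 0.00239), while its RNA fell (-0.62). With so few control counts its difference is in part fixed by the coverage rule. Without control 2 MSMO1 was not called (adjusted p = 0.074). SREBF2 was not called with any 1 library left out.

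Lists of the cytoskeleton, of protein folding and of protein breakdown had medians from -1.12 to -0.90, beside -0.88 for short members with most RNA. Of 28 tubulins, actins and partners 3 had fewer footprints (TUBA1B, TUBB and TUBB4B), the median was -1.12 [-1.48 to -0.85], and 17 had less RNA. TUBB was at 295 and 408 CPM against 59.5 and 109 CPM (-2.06, adjusted p = 0.0425), and tubulin genes share sequence, so reads may be split among them. Of 22 chaperones and chaperonin subunits CCT6A (-1.94, adjusted p = 0.0379) and HSPD1 (-1.95, adjusted p = 0.0431) had fewer footprints and HSPA4 more, with a median of -0.99 [-1.53 to -0.68]. CCT6A holds SNORA22B and SNORA15 and HSPD1 holds SNORA105B, and the part of these small RNA genes was not tested. CCT6A RNA stayed between 597 and 666 CPM. Of 17 chaperones and response genes of the endoplasmic reticulum 0 were called, with a median of -0.90 [-1.20 to -0.81] and HSPA5, the chaperone BiP, at 233 and 287 CPM against 65.7 and 83.8 CPM (-1.80, adjusted p = 0.0581). Of 28 proteasome subunits PSMA4 had fewer footprints (-1.99, adjusted p = 0.0437), with a median of -0.90 [-1.42 to -0.63]. PSMA4 had only 23 and 35 knockdown counts, so its difference is in part fixed by the coverage rule. PSMD12 fell in footprints per RNA (-2.08, adjusted p = 0.0306), its RNA having risen (0.39) while its footprints were at 63.5 and 51.2 CPM against 16.6 and 18.8 CPM. The calls of PSMA4 and HSPD1 were lost with any 1 library left out, and those of TUBB and CCT6A without either control or knockdown 1.

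Of 48 nuclear genes of the respiratory chain and ATP synthase, 2 had fewer footprints, 38 lay below both controls (79.2%) and 1 above, and the median was -1.08 [-1.58 to -0.72] with an RNA median of 0.06. NDUFS6, a subunit of complex I, was at 77.0 and 62.2 CPM against 12.5 and 24.6 CPM (-1.89, adjusted p = 0.0496), with RNA between 52.7 and 58.5 CPM, and lost its call with any 1 library left out. CYC1, cytochrome c1, fell in footprints per RNA (-2.16, adjusted p = 0.0406). With 25 and 58 knockdown counts, its difference is in part fixed by the coverage rule. Of 21 hypoxia and glycolysis genes 0 were called (median -0.98 [-1.17 to -0.82]), and 9 had less RNA and 0 more (RNA median -0.14), with LDHA at 111 and 134 CPM against 29.5 and 56.4 CPM (-1.51, adjusted p = 0.111). Of 20 antioxidant genes TKT was called (median -0.76 [-1.12 to -0.61]), of 45 splicing factors 0 (median -0.89 [-1.53 to -0.57], with 77.8% below both controls), and of 20 lysosome genes 0 (median -0.83 [-1.10 to -0.73]).

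Of 23 noradrenergic and secretory granule genes CHGA had fewer footprints, the median was -1.01 [-1.38 to -0.52] and the RNA median 0.04. RET, a receptor tyrosine kinase of this lineage, was at 114 and 112 CPM against 34.1 and 41.9 CPM (-1.57, adjusted p = 0.0814). Of 23 neuronal differentiation genes STMN2 had fewer footprints, while ROBO1 (2.06, adjusted p = 0.0401) and SYT1 (1.94, adjusted p = 0.0444) had more. ROBO1, an axon guidance receptor, spans 1171 kb and SYT1, the calcium sensor of synaptic vesicles, 588 kb, and neither was called with total counts alone or without control 1, control 2 or knockdown 1. The neuronal median was -0.46 over 23 members [-1.07 to -0.22] and -1.16 over the 11 with no small RNA gene and a span of at most 100 kb, a selection added after the data were seen. Of 9 ATF4 targets PSAT1, an enzyme of serine synthesis, had fewer footprints (-1.99, adjusted p = 0.0363), with a median of -0.80 [-1.33 to -0.71]. The 4 immediate early genes were not called (median -0.74 [-1.36 to -0.23]). Of 13 histone and high mobility group genes H2AX was called (-1.95, adjusted p = 0.0415), and its RNA fell as well (-1.59). The median of that list was -0.52 [-1.40 to -0.21]. PSAT1 and H2AX were not called with any 1 library left out. Both had fewer than 100 knockdown counts, so their difference is in part fixed by the coverage rule. Of 17 mesenchymal and matrix genes 0 were called and the median was -0.07, which turned to 0.35 with scaling from the members alone and to 0.02 without control 2.

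Targets of p53 were the list with a median above 0, under each of the 4 scalings (0.57, and between 0.30 and 0.94 over the scalings). Without knockdown 2 that median was 0.20, and without other single libraries at most 0.70. The list held only 10 members. Of these 6 lay above both controls (60%, against 21.2% of all members and 29% of all genes tested). Another 3 lay below (30%, against 42.3% and 26.7%). In RNA 6 were higher and 2 lower. The median change in footprints per RNA was -0.34, against -0.31 over the members. SESN1, a stress-induced inhibitor of growth signalling, had 18 and 22 control counts and 188 and 125 knockdown counts (3.17, SE 0.65, adjusted p = 0.00622). Its controls held fewer than 100 counts together, so this difference is in part fixed by the coverage rule. RNA of SESN1 rose from 43.7 and 45.8 CPM to 56.4 and 58.0 CPM (0.35). The gene spans 111 kb and holds a small RNA pseudogene, and its call was lost without control 1, control 2 or knockdown 1 (highest adjusted p = 0.118). CCNG2 (1.08, adjusted p = 0.289) and XPC (-1.32, adjusted p = 0.162), named by their p, were not called. CDKN1A, the cell-cycle inhibitor p21, named after its values were seen, had 97 and 103 counts against 90 and 255 (0.76, adjusted p = 0.451), while its RNA rose (1.41).

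**Figure D5:**
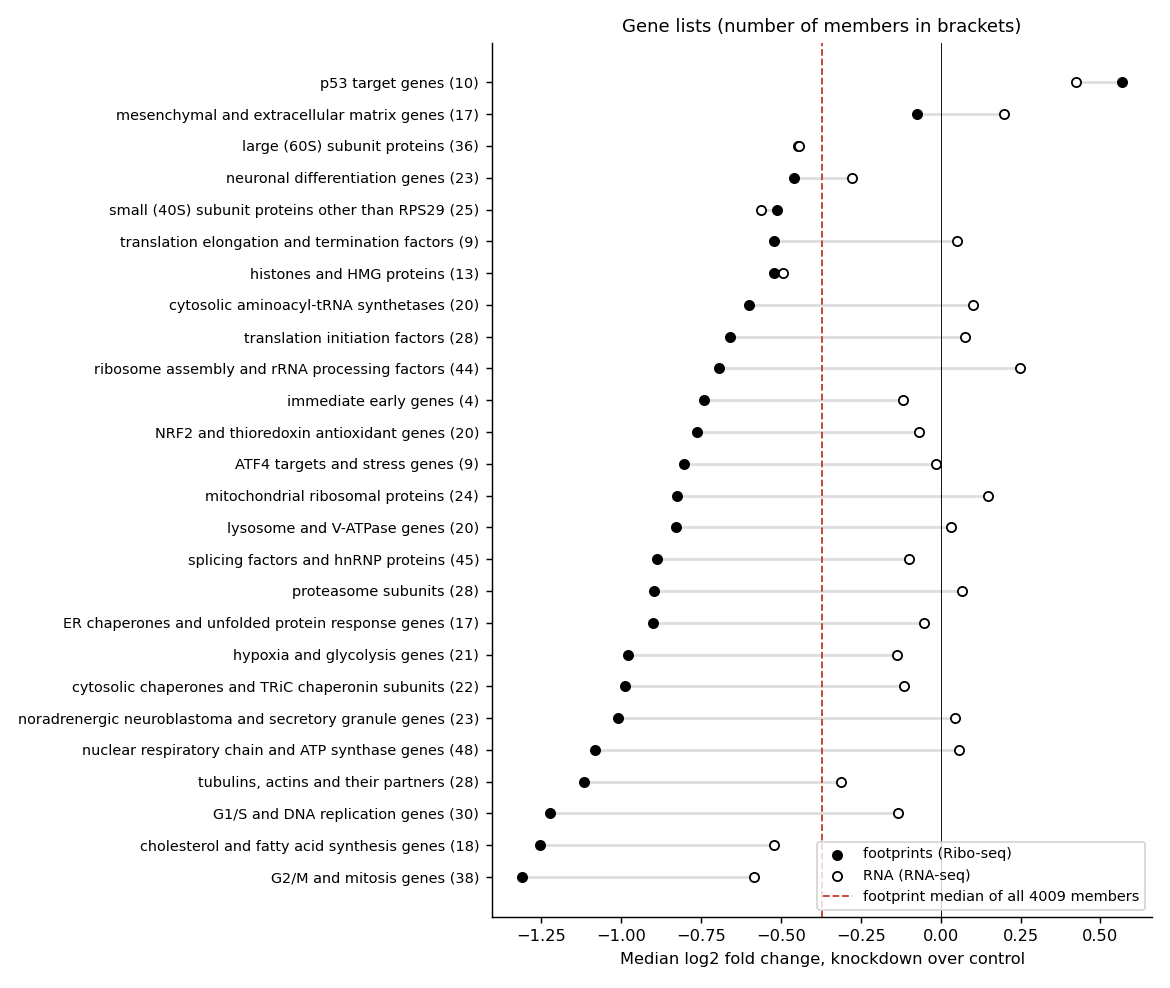
Median log2 fold change (knockdown over control, horizontal axis) of the members of each gene list, for footprints (filled circles) and RNA (open circles). The dashed line marks the footprint median of the 4009 members (-0.37). G2/M and mitosis genes lie lowest (-1.31), p53 targets highest (0.57), and ribosome assembly factors have an RNA median of 0.25 beside a footprint median of -0.69. With scaling from the members alone the median of the mesenchymal list turns to 0.35, and no other list median changes sign under the 4 scalings.

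Much of the members' Ribo-seq signal came from genes that contain a small RNA gene. The members with most control counts were RPS2 (336312 and 592822 control counts against 184110 and 815943 knockdown counts), SEC14L1 (417817 and 332001 against 253237 and 604739) and RPL27A (313440 and 285008 against 121061 and 562149). RPS2 holds SNORA10 and SNORA64, SEC14L1 holds SCARNA16, and RPL27A holds SNORA3A and SNORA3B, and in all 3 the knockdown libraries lay on both sides of the controls or overlapped them. Their changes were 0.01, 0.19 and 0.09 with an SE above 1.2. The 1061 members with a small RNA gene had a median change of -0.03 and the 2948 without one of -0.48. RPL5 and DIPK1A, which share SNORD21 and SNORA66 in their spans, had nearly the same counts (10254, 17115, 4808 and 19285 against 10266, 17093, 4823 and 19294 in the order control 1, control 2, knockdown 1, knockdown 2), so their values are uncertain. Both were named after their values were seen.

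Mature miRNAs lie in some of these genes, and 4 are shown, chosen after their values were seen, as examples of what such a span contains. The sequences are from RefSeq (GRCh38.p14), 5′ to 3′, with the seed (bases 2 to 8) in capitals.
miR-21-5p in VMP1, chr17:59841273-59841294, plus strand: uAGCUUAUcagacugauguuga
miR-25-3p in MCM7, chr7:100093571-100093592, minus strand: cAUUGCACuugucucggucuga
miR-93-5p in MCM7, chr7:100093815-100093837, minus strand: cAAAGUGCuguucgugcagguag
miR-106b-5p in MCM7, chr7:100094043-100094063, minus strand: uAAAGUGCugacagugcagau
The last pair share the seed AAAGUGC. VMP1, a membrane protein of autophagy, had 27218 and 16308 control counts and 41603 and 60221 knockdown counts (1.31, adjusted p = 0.432), with RNA of 92.1 CPM in control 2 and 106 CPM in knockdown 1. MCM7, a subunit of the replication helicase, had 20333 and 10760 against 16927 and 32081 (0.69, adjusted p = 0.683). Whether these counts are footprints or small RNA was not tested.

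At the count threshold, PRR3 (44, 59, 18 and 79 counts in the order control 1, control 2, knockdown 1, knockdown 2) and BRAF (34, 19, 76 and 71) were just inside with 200 counts, and AGPAT1 (58, 47, 11 and 83) and AP1AR (60, 37, 29 and 73) just outside with 199. At the RNA threshold IQCK (10.01 CPM) was just inside, and APOLD1 (9.976 CPM) and C19orf44 (9.97 CPM) were just outside.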

How the data were processed

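The deposited values were whole-number counts per gene symbol, 1 table per assay. Per the submitters' processing notes, the authors used Trim Galore, Salmon, Bowtie2, STAR and featureCounts with hg38. The tool behind each table, and whether Ribo-seq counts were limited to coding exons or cleared of small RNA, is not given in the sources used here, so reads in introns or embedded small RNA genes may be included. From these counts, each table was fitted whole with edgeR 4.0.16 in R 4.3.3 (quasi-likelihood test, TMM scaling, filterByExpr, Benjamini-Hochberg adjustment over all genes tested, called below 0.05), and the members were counted afterwards. CPM in the text used TMM factors, and the coverage rule used totals. A small RNA gene was a RefSeq gene of an RNA class of at most 500 bases within a member's span. Scripts were tested on simulated data. Alternatives were other scalings, DESeq2 1.42.0, limma-voom (limma 3.58.1), no filter, a replicate block, stricter member rules and leaving out each library. The members and the gene lists were chosen with earlier results of these data known. Named genes were RPS29, up to 12 largest calls in each direction among members with 100 counts in each condition and no small RNA gene, up to 6 in each direction with fewer counts in 1 condition, up to 6 holding a small RNA gene, the 3 smallest p of each list, and the 3 members of highest control CPM; some were left out for space, and some genes are not reported here.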

Additional observations from a re-analysis of the deposited data

How the results depend on the processing

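Depth and replicate spread limit these results: the median member had between 58 and 105 footprint counts per library, and changes below 1.84 on the log2 scale were not called. The counts of members with more and with fewer footprints (209 and 60) kept within 1.5 times under RLE size factors (200 and 50) and with no count filter (228 and 76). With the members tested alone they were 368 and 36, with total counts alone 120 and 67, with scaling from the members alone 214 and 4, with DESeq2 257 and 147, and with limma-voom 269 and 159. Among members with 100 counts in each condition they were 63 and 22, with 500 counts 106 and 24, with 30 RNA CPM 93 and 56, with no small RNA gene 133 and 48, and with a span of at most 100 kb 72 and 57; with all 3 restrictions joined, added after the data were seen, 17 and 17 of 1524 members. Leaving out 1 library gave 28 to 188 and 2 to 46 calls for footprints, 309 to 877 and 654 to 1352 for RNA, and 44 to 649 and 25 to 1385 for footprints per RNA. The members' median was -0.62 with total counts alone and turned to 0.014 with scaling from the members alone; it was -0.67 with a span of at most 100 kb, -0.64 with the 3 restrictions joined, and between -0.66 and -0.23 with 1 library left out. The cause of these shifts was not tested. The mesenchymal list's median turned to 0.35 with scaling from the members alone and lay between -0.24 and 0.016 with 1 library left out, above 0 without control replicate 2. Changes near 0 turned sign in RPS2 (limma-voom -0.11, replicate block -0.10, total counts -0.22, and between -0.94 and 0.56 with 1 library left out), RPL27A (limma-voom -0.11, replicate block -0.094, total counts -0.17, and between -0.91 and 0.66 with 1 library left out) and SEC14L1 (total counts -0.071, and between -0.175 and 0.44 with 1 library left out). The labels' replicate numbers do not say that they pair libraries, and deviations of same-numbered libraries correlated at 0.144 in Ribo-seq and -0.272 in RNA-seq. With the replicate number as a block, 353 members were higher and 330 lower in footprints, 483 and 899 in RNA, and 13 and 0 in footprints per RNA, so that no fall in footprints per RNA named above was called there. With the numbers crossed, added after the data were seen, RNA gave 770 and 1284.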
